A study of Mus musculus with 12 samples.

Results

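Nuclear RNA of microglia was compared between 14 days and 7 days after spinal cord injury in mice. The comparison takes 6 of the 12 libraries of the series, 3 at 14 days and 3 at 7 days, and covers every gene with enough counts for a test, 18451 of 49585 annotated genes. The 14-day and 7-day libraries both came from injured C57BL/6 mice, and their labels differ in the time of collection and in a primer number for each library, which does not overlap between the groups. The remaining libraries are 3 from injured mice at 3 days and 3 from sham-operated mice, which carry the 7-day label. Each library pooled cord from 3 animals, taken 5 mm to either side of the lesion, and nuclei that carry green fluorescent protein (GFP) were captured by antibody and magnetic beads. The labels call these nuclei microglia-specific and do not name the transgene or the promoter that drives GFP, so the cells it marks cannot be stated here beyond the label. The replicate numbers are 1, 2 and 3 at 14 days and 1, 3 and 4 at 7 days, and values below keep that order. Nothing in the labels says that a number is shared between times, and p-values measure the spread between pools of animals.

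Microglia are the resident macrophages of the central nervous system. After a contusion or cut of the cord they proliferate, take up debris and myelin, and border the lesion together with infiltrating macrophages, reactive astrocytes and fibroblasts, while blood vessels in and around the lesion regress and regrow. In the weeks after injury an astroglial and fibrotic scar forms. Because nuclei were captured, the libraries hold RNA that is being made or retained in the nucleus, and long unspliced transcripts and nuclear noncoding RNAs weigh more than they do in whole cells.

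Markers of the labelled cell type were present in all 6 libraries. The homeostatic microglial list of 26 genes summed to 11372, 12908 and 11688 CPM at 14 days, against 14134, 13811 and 11416 CPM at 7 days, where CPM are counts scaled to the size of the library. P2ry12, the purinergic receptor that guides microglial processes, had 174, 234 and 151 CPM at 14 days, against 335, 338 and 131 CPM at 7 days. Sall1, a transcription factor of microglial identity, had 338, 384 and 363 CPM at 14 days, against 663, 484 and 491 CPM at 7 days. RNA of other cells was present too: neuron markers summed to 1641, 2042 and 1402 CPM at 14 days, against 1212, 1299.5 and 1123 CPM at 7 days, and T and NK cell markers to 16.2, 12.9 and 19.00 CPM at 14 days, against 5.70, 13.9 and 10.9 CPM at 7 days. The neutrophil and dendritic cell lists were carried by single genes that microglia express, Csf3r and Siglech. Without Csf3r the neutrophil list summed to 10.8, 9.90 and 13.3 CPM at 14 days, against 17.6, 10.1 and 8.40 CPM at 7 days. Without Siglech the dendritic cell list summed to 104, 86.4 and 107 CPM at 14 days, against 125, 148 and 124 CPM at 7 days, without overlap. Total counts were 4037508 to 6313722 at 14 days and 5047851 to 7232561 at 7 days. Libraries of a group correlated at r = 0.972 to 0.979 over genes at 14 days and 0.946 to 0.956 at 7 days (log2 CPM), and at 0.915 to 0.951 between the groups. The spread between 2 libraries of a group exceeded counting error, with a chi-square per degree of freedom of 4.53 to 6.29 at 14 days and 21.4 to 22.8 at 7 days. The first principal component of these 6 libraries held 50.8% of the variance and separated the groups, with coordinates of -46.5 to -44.0 at 14 days against 20.7 to 72.2 at 7 days. The pools also differed in sex: 4 Y-linked genes summed to 17.7, 235 and 435 CPM at 14 days, against 9.50, 703 and 568 CPM at 7 days.

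Between the times, 404 genes (2.19% of those tested) passed an adjusted p of 0.05 in the quasi-likelihood test of edgeR, adjusted by Benjamini and Hochberg's method. Of these, 250 were higher at 14 days (1.35%) and 154 were lower (0.835%). The higher genes included genes of blood vessel walls and of astrocytes, and the lower genes the scavenger receptor Stab1, the chemokines Ccl2 and Ccl12, interferon-induced genes and noncoding RNA hosts. The median log2 fold change over all tested genes was -0.05, against 2.14 for the 250 and -1.45 for the 154. The 3 libraries of each group did not overlap for any of the 404. Over all tested genes, 2585 (14.0%) had every 14-day library above every 7-day library and 3076 (16.7%) had every 14-day library below. The rises came from genes of lower level and greater length than the falls. The median mean level was 13 CPM for higher and 30.9 CPM for lower genes, and the median gene length was 4960 and 2784 bases. Lengths are those by which the authors' RPKM table scales the counts, and not the span of the gene on the chromosome.

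The count depends on single libraries. It was 1 without 14-day replicate 1, 34 without replicate 2 and 33 without replicate 3, and 6, 7 and 301 without 7-day replicates 1, 3 and 4. All fitted genes among the 250 and the 154 kept their direction in each of these fits. Their groups did not overlap, so that leaving out 1 library left little room for a turn of direction. The shared estimate of spread also draws on the sham and 3-day libraries, of which sham replicate 4 and 3-day replicate 3 stand apart in vascular RNA, and sham replicate 4 also in astrocyte RNA. Without sham replicate 4 the count was 1774 (806 higher, 968 lower), and without 3-day replicate 3 it was 333 (225 higher, 108 lower). The lipocalin Ptgds, a prostaglandin D synthase, had 84.2, 75.3 and 69.7 CPM at 14 days, against 24.7, 13.6 and 17.8 CPM at 7 days, a log2 fold change of 2.04 ± 0.23 (adjusted p = 0.00328). It was the only one of the 96 genes examined singly that passed in all 6 fits with a library left out, and it is named because of its values.

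**Figure D1:**
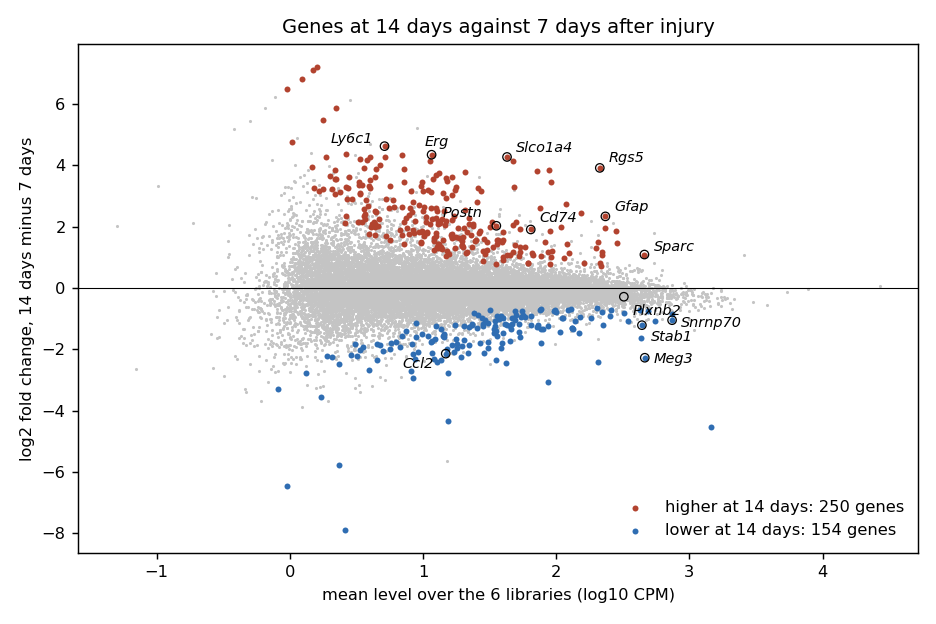
Log2 fold change at 14 days minus 7 days (vertical axis) against the mean level over the 6 libraries (horizontal axis, log10 CPM), with 1 point per tested gene. The 250 genes higher at 14 days are red, the 154 lower are blue, and the genes named in the plot are described in the text, with Rgs5 at 3.91 and Meg3 at -2.28.

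Genes of the vessel lining rose together. Endothelial markers were called higher in 12 of 15 genes and their log2 fold changes had a median of 2.94, against 1.35% called higher and a median of -0.05 over all genes, and all 15 had every 14-day library above every 7-day library. Summed, they came to 667, 666 and 662 CPM at 14 days, against 60.6, 71.2 and 101 CPM at 7 days, 8.57 times as high at 14 days (exact two-sided permutation test, p = 0.10, the smallest that 3 against 3 libraries can give). It was 422, 480.3 and 1078 CPM at 3 days and 60.00, 75.7 and 297 CPM in sham replicates 2, 3 and 4. In bulk RNA, more nuclei of a cell type and more of its RNA per nucleus cannot be told apart. The 3 genes that did not pass were Cldn5, Egfl7 and Esam, with log2 fold changes of 2.10, 1.54 and 2.77. With 7-day replicate 4 left out 6 of the 15 passed, and with any 1 of the other 5 libraries left out none did. The list was higher in 14 of 15 genes at 3 days against sham, a comparison that shares no library with this one.

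The organic anion transporter Slco1a4 of the rodent blood-brain barrier (chr6:141805440-141856199, minus strand, GRCm38) had 88.3, 74.8 and 81.1 CPM in the 14-day libraries, against 1.26, 4.58 and 6.29 CPM in the 7-day libraries. No 14-day library came near a 7-day one, and it had a log2 fold change of 4.27 ± 0.80 (adjusted p = 0.0200). Erg, an ETS-family transcription factor that maintains endothelial identity (chr16:95359169-95586593, minus strand), had 18.99, 27.1 and 20.5 CPM at 14 days, against 0, 1.23 and 1.74 CPM at 7 days, with no count in 7-day replicate 1. Its log2 fold change was 4.34 ± 0.86 (adjusted p = 0.0226), the largest among genes with a mean of at least 10 CPM. Tek, the angiopoietin receptor, had 23.2, 20.3 and 21.2 CPM at 14 days, against 0, 0.704 and 2.54 CPM at 7 days, a log2 fold change of 4.14 ± 0.74 (adjusted p = 0.0161). Ptprb, a phosphatase that acts on Tek and on vascular cadherin, had 162, 172 and 164 CPM at 14 days, against 6.70, 6.69 and 20.1 CPM at 7 days, and Cdh5, that cadherin of endothelial junctions, had 27.4, 29.5 and 25.4 CPM at 14 days, against 1.68, 1.94 and 3.08 CPM at 7 days. Ptprb rose by 3.86 and Cdh5 by 3.57 on the log2 scale. Flt1, a receptor of vascular endothelial growth factor, had 201, 200.1 and 212 CPM at 14 days, against 24.7, 35.7 and 30.9 CPM at 7 days, and Robo4, an endothelial receptor of the roundabout family, had 8.74, 7.01 and 6.24 CPM at 14 days, against 0.209, 0.704 and 1.20 CPM at 7 days. Their log2 fold changes were 2.74 ± 0.56 and 3.25 ± 0.73. The groups did not overlap for either gene, and Robo4 was close to 0 at 7 days.

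Other large rises were in transporters and regulators that brain endothelium is known to express. Abcb1a, which encodes the efflux pump P-glycoprotein, had 23.8, 28.8 and 25.8 CPM at 14 days, against 4.19, 2.82 and 3.21 CPM at 7 days, a log2 fold change of 2.94 ± 0.55 (adjusted p = 0.0188). Slco1c1, a carrier of thyroid hormone, had 29.8, 28.1 and 33.9 CPM at 14 days, against 0.628, 1.76 and 4.55 CPM at 7 days, a log2 fold change of 3.63 ± 0.65 (adjusted p = 0.0161). Slc22a8, an organic anion transporter, had 26.8, 18.9 and 24.1 CPM at 14 days, against 0.419, 1.76 and 2.94 CPM at 7 days, a log2 fold change of 3.67 ± 0.87 (adjusted p = 0.0435). The hypoxia-inducible factor gene Epas1 had 148, 228 and 129 CPM at 14 days, against 8.59, 13.03 and 24.1 CPM at 7 days, a log2 fold change of 3.44 ± 0.64 (adjusted p = 0.0188). The adhesion receptor gene Adgrf5 had 81.98, 108 and 79.97 CPM at 14 days, against 1.05, 6.34 and 7.36 CPM at 7 days, a log2 fold change of 4.14 ± 0.95 (adjusted p = 0.0392). The membrane protein gene Itm2a had 22.9, 25.01 and 26.3 CPM at 14 days, against 0.419, 1.23 and 3.48 CPM at 7 days, a log2 fold change of 3.74 ± 0.62 (adjusted p = 0.0135). Ly6c1, a surface protein that mouse endothelium carries and that is in the monocyte-derived macrophage list here, had 10.5, 10.99 and 8.24 CPM at 14 days. It had 0, 0.528 and 0.535 CPM at 7 days, and a log2 fold change of 4.62 ± 0.76 (adjusted p = 0.0133). Ly6c1 has a close paralog, Ly6c2, and how the authors' counting split reads between such copies is not given in the sources used here. Pltp, a phospholipid transfer protein, had 52.3, 50.02 and 44.1 CPM at 14 days, against 2.09, 5.81 and 8.02 CPM at 7 days, a log2 fold change of 3.16 ± 0.64 (adjusted p = 0.0239). The glucose transporter gene Slc2a1 and the amino acid transporter genes Slc7a5 and Slc7a11 rose by 1.48, 1.86 and 2.28 on the log2 scale. Slc2a1 had 115, 135 and 112 CPM at 14 days, against 41.1, 33.3 and 54.8 CPM at 7 days, so both groups expressed it.

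Promoters of endothelial genes often carry the core recognised by ETS factors such as Erg, and 3 of those above are shown for that reason, each as the 150 bases before the start of the gene in RefSeq (GRCm38.p6), read in the direction of the gene. Capitals mark the letters AGGAAG or, on the other strand, CTTCCT.
Flt1: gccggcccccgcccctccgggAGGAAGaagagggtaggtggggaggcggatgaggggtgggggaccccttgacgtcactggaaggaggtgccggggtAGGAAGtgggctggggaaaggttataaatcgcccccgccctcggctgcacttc
Robo4: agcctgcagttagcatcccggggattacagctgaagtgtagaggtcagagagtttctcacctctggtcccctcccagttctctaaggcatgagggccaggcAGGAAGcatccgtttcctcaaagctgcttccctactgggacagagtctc
Slco1a4: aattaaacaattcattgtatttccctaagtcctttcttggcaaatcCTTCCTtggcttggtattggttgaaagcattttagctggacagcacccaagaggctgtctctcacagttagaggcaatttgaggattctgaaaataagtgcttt
The windows lie at chr5:147726012-147726161 (minus strand) for Flt1, chr9:37401822-37401971 (plus strand) for Robo4 and chr6:141856221-141856370 (minus strand) for Slco1a4. Flt1 holds the letters at 2 places and the other 2 genes at 1. In windows of 250 bases before to 50 after the start, 7 of the 10 endothelial markers with a promoter in the table held this core on either strand. It was present in 33.4% of all 11424 tested genes with a promoter there, in 28.8% of the 170 higher genes and in 31.4% of the 105 lower genes. The motif was searched after the values were seen, and a match is a description of the letters.

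Some genes of the cells that wrap vessels and of fibroblasts were higher. Of 16 fibroblast and pericyte markers, 4 were called higher (1.35% of all genes) and 12 did not pass. Their median log2 fold change was 2.10, and 14 of the 16 had every 14-day library above every 7-day library (14.0% of all genes). They summed to 789.6, 884 and 733 CPM at 14 days, against 58.8, 171 and 149.7 CPM at 7 days (6.34 times as high, exact permutation p = 0.10), with 364, 415 and 993 CPM at 3 days and 82.8, 110.1 and 538 CPM in sham. Rgs5, a G protein regulator that marks pericytes (chr1:169655501-169695813, plus strand), had 377, 469.9 and 349 CPM in the 14-day libraries, against 8.59, 32.2 and 37.6 CPM in the 7-day libraries. Every 14-day library was above every 7-day library, and it had a log2 fold change of 3.91 ± 0.96 (adjusted p = 0.0478). Vtn, which encodes vitronectin and is made by pericytes in the nervous system, had 25.8, 29.5 and 28.96 CPM at 14 days, against 0.838, 1.76 and 4.55 CPM at 7 days, a log2 fold change of 3.47 ± 0.51 (adjusted p = 0.0127). Myh11, the smooth muscle myosin heavy chain, had 21.4, 56.6 and 18.5 CPM at 14 days, against 0.838, 4.58 and 4.01 CPM at 7 days, with replicate 2 highest at 14 days. Its log2 fold change was 3.30 ± 0.70 (adjusted p = 0.0274). Cxcl12, a chemokine of stromal and endothelial cells, had 40.2, 34.8 and 40.1 CPM at 14 days, against 0.628, 1.76 and 5.35 CPM at 7 days, a log2 fold change of 3.79 ± 0.85 (adjusted p = 0.0359). The small proteoglycan gene Dcn had 21.6, 22.9 and 19.6 CPM at 14 days, against 3.14, 5.99 and 4.95 CPM at 7 days, a log2 fold change of 2.17 ± 0.51 (adjusted p = 0.0413). The 12 markers that missed the threshold had log2 fold changes of 0.61 (Anpep) to 3.47 (Kcnj8). Without 14-day replicates 1, 2 and 3 in turn 0, 2 and 2 of the 16 passed, and without 7-day replicates 1, 3 and 4 it was 0, 1 and 2.

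Of 27 matrix and wound genes, 6 were called higher (1.35% of all genes), none was lower and 21 did not pass. The list median was 1.09, and 19 genes had every 14-day library above every 7-day library (14.0% of all genes). Postn, the matrix protein periostin of scar fibroblasts, had 53.05, 57.97 and 60.1 CPM at 14 days, against 8.38, 22.01 and 11.5 CPM at 7 days, a log2 fold change of 2.03 ± 0.30 (adjusted p = 0.0127). Its level was also low at 3 days, at 3.64, 5.76 and 6.15 CPM, and in sham, at 7.11, 7.54 and 7.56 CPM, so that the 3 highest of the 12 libraries were those at 14 days. Col4a2, a chain of basement membrane collagen, had 23.5, 26.9 and 24.7 CPM at 14 days, against 4.61, 7.57 and 10.97 CPM at 7 days, a log2 fold change of 1.67 ± 0.34 (adjusted p = 0.0231). Col4a2 overlaps its partner gene Col4a1, which passed too at 2.15. Thbs2, a thrombospondin, had 16.9, 14.03 and 20.05 CPM at 14 days, against 1.89, 2.99 and 3.88 CPM at 7 days, a log2 fold change of 2.50 ± 0.52 (adjusted p = 0.0264). Sparc, a matrix-binding glycoprotein that microglia and endothelium both make, had 593, 741 and 541 CPM at 14 days, against 342, 293 and 247 CPM at 7 days, a log2 fold change of 1.09 ± 0.21 (adjusted p = 0.0226). The list count was 0, 1 and 1 without 14-day replicates 1, 2 and 3 in turn, and 0, 1 and 4 without 7-day replicates 1, 3 and 4. The 6th gene was Tgm2, a transglutaminase, at 1.11. The C1 inhibitor gene Serping1, the collagen-binding integrin subunit Itga1 and the betaglycan gene Tgfbr3 each were the only member called higher of their lists of 17 complement, 24 integrin and 23 TGF-beta genes, with log2 fold changes of 2.81 ± 0.59, 3.46 ± 0.83 and 2.27 ± 0.46. Summed vascular markers moved with these genes. With the log2 summed endothelial, fibroblast and pericyte markers as a covariate, Serping1 was at 0.38, Itga1 at -0.73, Tgfbr3 at 1.12 and Postn at 1.43 on the log2 scale, so that Itga1 turned direction. In that fit no gene passed in edgeR (0 of 18451, with 1959 at an unadjusted p under 0.05). Within the 6 libraries the covariate follows the groups, and Postn is itself in the sum. The fit can therefore hardly tell time from vascular RNA, and no conclusion is drawn from it.

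Astrocyte markers were called higher in 5 of 17 genes (1.35% of all genes) with a median of 1.45, and 11 of the 17 had every 14-day library above every 7-day library (14.0% of all genes). Summed, they came to 3602, 3280.5 and 3577 CPM at 14 days, against 2321, 2160.5 and 2140.0 CPM at 7 days, 1.58 times as high at 14 days (exact permutation p = 0.10), with 2792, 1869 and 2816 CPM at 3 days and 1015, 2291 and 5754 CPM in sham. Gfap, the intermediate filament of reactive astrocytes (chr11:102887336-102900912, minus strand), had 426, 355 and 392 CPM in the 14-day libraries, against 45.9, 72.7 and 113 CPM in the 7-day libraries. The lowest 14-day library was above the highest of the 9 others, 3-day replicate 3 at 337 CPM, and the gene had a log2 fold change of 2.33 ± 0.36 (adjusted p = 0.0127). Gja1, the gap junction protein connexin 43, had 37.7, 31.6 and 44.3 CPM at 14 days, against 4.61, 15.8 and 7.36 CPM at 7 days, a log2 fold change of 2.02 ± 0.35 (adjusted p = 0.0147). Sox9, a glial transcription factor, had 19.6, 20.8 and 25.4 CPM at 14 days, against 1.47, 3.87 and 5.75 CPM at 7 days, a log2 fold change of 2.52 ± 0.53 (adjusted p = 0.0264). Slc4a4, a bicarbonate cotransporter, had 151, 127 and 143 CPM at 14 days, against 26.4, 49.3 and 39.9 CPM at 7 days and rose by 1.86 on the log2 scale. The 5th gene was Atp13a4, at 2.16. Among the highest called levels was the matricellular gene Sparcl1, which astrocytes express, with 439.9, 482 and 392 CPM at 14 days, against 141, 105 and 120.5 CPM at 7 days, a log2 fold change of 1.84 ± 0.32 (adjusted p = 0.0147). The glial potassium channel gene Kcnj10 had 166, 181 and 165 CPM at 14 days, against 85.9, 69.9 and 76.8 CPM at 7 days, a log2 fold change of 1.14 ± 0.28 (adjusted p = 0.0485). Without 14-day replicates 1, 2 and 3 in turn 0, 2 and 1 of the 17 markers passed, and without 7-day replicates 1, 3 and 4 it was 0, 1 and 3. Not every astrocyte gene moved this way: Slc1a3, a glutamate transporter, had every 14-day library below every 7-day library and a log2 fold change of -1.01 (adjusted p = 0.398).

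Other neural and glial lists had no called member: 0 of 20 neuron genes, 0 of 17 oligodendrocyte genes, 0 of 14 precursor genes, 0 of 8 Schwann cell genes and 0 of 7 ependymal genes. Their sums were nevertheless higher in every 14-day library, with oligodendrocyte markers at 1436, 1784 and 1215 CPM at 14 days, against 1104, 739 and 1078 CPM at 7 days, precursor markers at 406, 465 and 435 CPM at 14 days, against 239, 294 and 306 CPM at 7 days, and ependymal markers at 37.9, 40.1 and 43.8 CPM at 14 days, against 14.3, 16.8 and 17.4 CPM at 7 days. With the summed neuron, astrocyte and oligodendrocyte markers as a covariate, 49 genes were called (21 higher, 28 lower). Calls in lists of blood-derived cells are read against 1.35% of all genes called higher and 0.835% called lower. Of 15 monocyte-derived macrophage markers, 2 were higher (Lyz2 and Ly6c1, which endothelium carries too) and 1 lower (Tgfbi). The list summed to 1063, 1109 and 978 CPM at 14 days, against 415, 731 and 863 CPM at 7 days. The calls were 0 of 5 neutrophil, 0 of 4 T and NK cell, 0 of 9 dendritic cell and 1 of 5 B and plasma cell genes, this last one being Ebf1 (1.38 ± 0.33), a factor that pericytes also express.

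**Figure D2:**
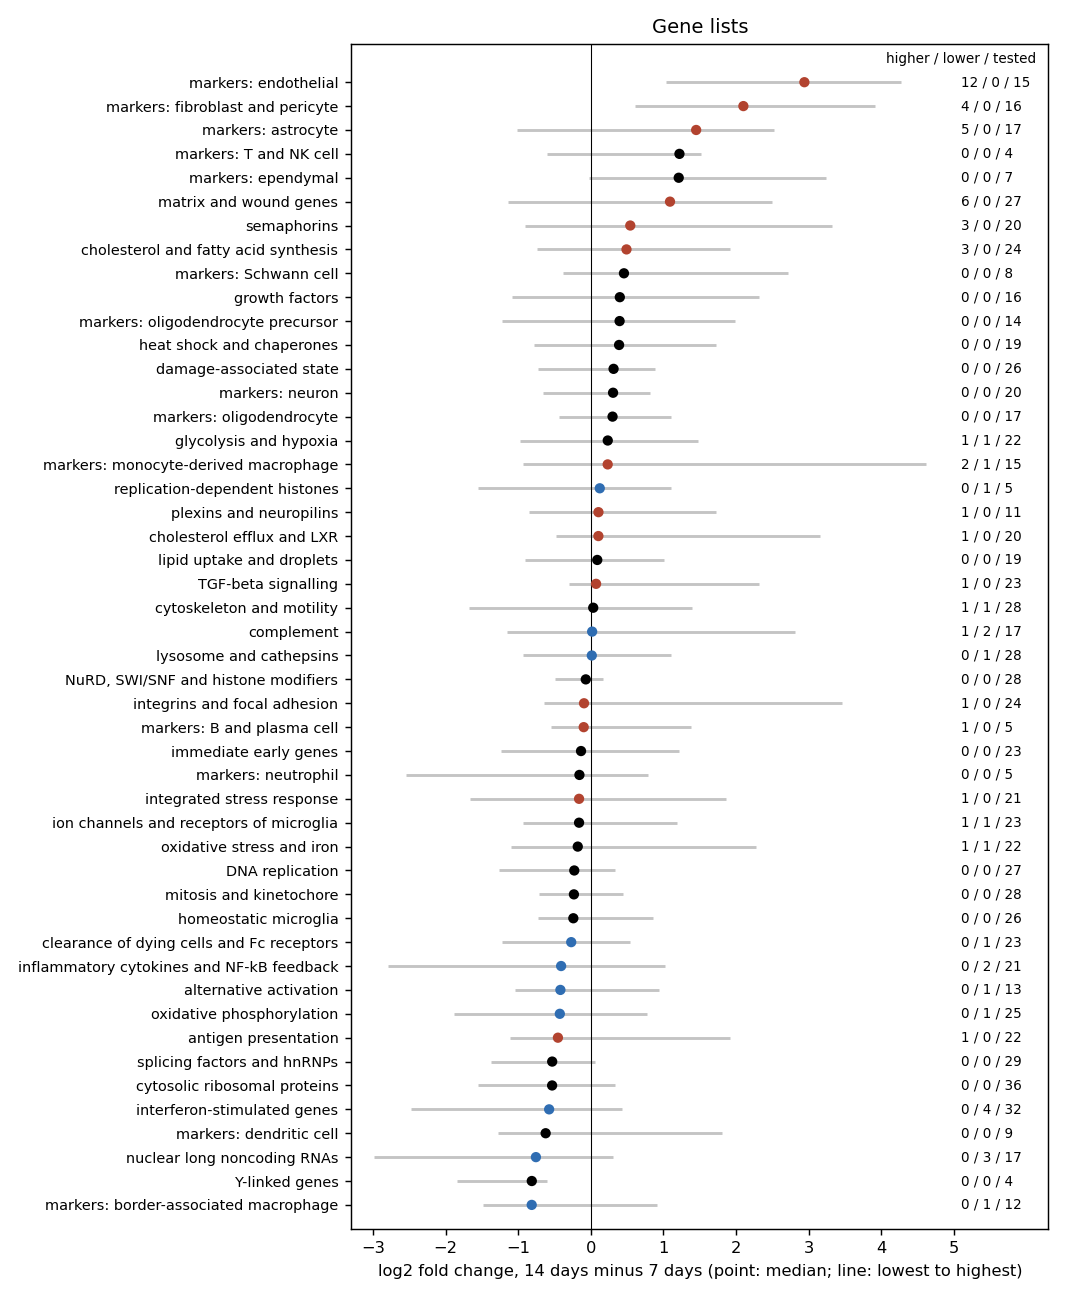
Log2 fold change at 14 days minus 7 days (horizontal axis) for each of the 48 gene lists, with the median as a point and the range of members as a line. Points are red where more members were called higher than lower, blue for the reverse and black for a tie, and the numbers at the right give members called higher, called lower and tested, from 12, 0 and 15 for endothelial markers at the top to 0, 1 and 12 for border-associated macrophage markers.

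Cd74 and 3 genes of fatty acid synthesis were among the rises. Cd74, the invariant chain of class II antigen presentation (chr18:60803848-60812652, plus strand), had 113, 108 and 84.9 CPM in the 14-day libraries, against 21.4, 24.8 and 34.9 CPM in the 7-day libraries. The groups did not overlap, and it had a log2 fold change of 1.91 ± 0.31 (adjusted p = 0.0133). It was the only one of 22 antigen presentation genes called, while the median of that list was -0.45 and 10 of its genes had every 14-day library below every 7-day library (16.7% of all genes). Lyz2, the lysozyme of macrophages, had 312, 382 and 208 CPM at 14 days, against 95.3, 146 and 189 CPM at 7 days, a log2 fold change of 1.06 ± 0.24 (adjusted p = 0.0355). Lyz2 has a near-identical neighbour, Lyz1, and the split of reads between them is uncertain. In fatty acid synthesis, Scd1, a desaturase that makes monounsaturated fatty acids, had 96.4, 79.9 and 78.4 CPM at 14 days, against 17.6, 18.3 and 31.4 CPM at 7 days, a log2 fold change of 1.91 ± 0.41 (adjusted p = 0.0298). Its paralog Scd2 had 296, 277 and 242 CPM at 14 days, against 169, 140.4 and 153 CPM at 7 days, a log2 fold change of 0.82 ± 0.16 (adjusted p = 0.0226). Acaca, the acetyl-CoA carboxylase at the first committed step, had 214, 189 and 214 CPM at 14 days, against 91.3, 127 and 132 CPM at 7 days, a log2 fold change of 0.82 ± 0.20 (adjusted p = 0.0495). These were 3 of 24 cholesterol and fatty acid synthesis genes (1.35% of all genes were called higher). The list had a median of 0.49, with 13 genes higher in every 14-day library (14.0% of all genes) and none lower in every one, and a sum of 1303, 1269 and 1182 CPM at 14 days, against 735, 680.3 and 863 CPM at 7 days (exact permutation p = 0.10). Summed markers were 1.58 times as high for astrocytes, 1.52 times for oligodendrocytes and 1.56 times for their precursors, and their part in these rises was not tested. With the vascular covariate Scd1 was at 0.10, Scd2 at 0.75 and Acaca at 0.08. No tested gene passed in that fit, where the covariate follows the groups, and no conclusion is drawn from it. Of the 3 calls, 2 held without 7-day replicate 4 and none without any other 1 of the 6 libraries. Sptbn1, a beta spectrin, and Cfl1, the actin-severing protein cofilin, rose by 1.47 ± 0.28 and 0.81 ± 0.20 on the log2 scale.

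The series concerns the semaphorin receptor Plexin-B2, and its gene Plxnb2 did not pass between these times. Plxnb2 had 274, 296 and 299 CPM in the 14-day libraries, against 395, 275 and 392 CPM in the 7-day libraries, and 7-day replicate 3 lay among the 14-day libraries. Its log2 fold change was -0.29 ± 0.16 (adjusted p = 0.378). Of 11 plexin and neuropilin genes only Plxna2 passed, with 62.5, 58.4 and 61.03 CPM at 14 days, against 19.1, 32.4 and 34.5 CPM at 7 days, a log2 fold change of 1.08 ± 0.26 (adjusted p = 0.0435). Of 20 semaphorins, the ligands of plexins and neuropilins, 3 were called higher (1.35% of all genes) and none lower, and the list median was 0.54. The secreted class 3 member Sema3b had 12.5, 8.18 and 10.2 CPM at 14 days, against 1.26, 1.06 and 0.802 CPM at 7 days, a log2 fold change of 3.32 ± 0.52 (adjusted p = 0.0128). Sema3c, of the same class, had 14.9, 10.3 and 15.6 CPM at 14 days, against 2.51, 2.82 and 1.47 CPM at 7 days, a log2 fold change of 2.60 ± 0.56 (adjusted p = 0.0293). The membrane-bound Sema6a had 31.6, 35.5 and 33.2 CPM at 14 days, against 5.24, 7.57 and 14.8 CPM at 7 days, a log2 fold change of 1.83 ± 0.45 (adjusted p = 0.0498). Summed endothelial markers were 8.57 times and fibroblast and pericyte markers 6.34 times as high in the same libraries. With both as a covariate Sema3b was at 1.62, Sema3c at 0.38, Plxna2 at 0.20 and Sema6a at -0.22, so that Sema6a turned direction. That fit called no gene at all and can hardly tell time from vascular RNA, so no conclusion is drawn from these values.

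Among the falls, Stab1, a scavenger receptor for modified lipoproteins and apoptotic cells (chr14:31139013-31168641, minus strand), had the smallest adjusted p. Stab1 had 262, 245 and 288 CPM in the 14-day libraries, against 673, 526 and 646 CPM in the 7-day libraries. The highest 14-day library was far below the lowest 7-day library, and it had a log2 fold change of -1.22 ± 0.14 (adjusted p = 0.00362). The call held without each single library except 14-day replicate 1. The level was 755, 858 and 791 CPM at 3 days and 516, 505 and 510.3 CPM in sham, so the 14-day libraries were the 3 lowest of the 12. Border-associated macrophages express Stab1 too. Their 12 tested markers had a median of -0.81, Stab1 was the only one called, and they summed to 996, 796 and 980.2 CPM at 14 days, against 1600.1, 1244 and 1395 CPM at 7 days. That sum holds Stab1 itself, and without it the list came to 721, 537 and 678 CPM at 14 days, against 963, 749 and 727 CPM at 7 days, where the highest 14-day and the lowest 7-day library nearly met. The part of such cells in the fall of Stab1 was not tested. In the list of 23 clearance and Fc receptor genes, Stab1 was likewise the only call.

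Several other genes fell. Trpm2, a calcium-permeable channel opened by oxidative stress, had 161, 176 and 185 CPM in the 14-day libraries, against 363, 337 and 295 CPM in the 7-day libraries. The groups were apart, and it had a log2 fold change of -0.93 ± 0.16 (adjusted p = 0.0135). Ncf1, an organising subunit of the phagocyte NADPH oxidase, had 201, 215 and 241 CPM at 14 days, against 496, 530.1 and 377 CPM at 7 days, a log2 fold change of -1.10 ± 0.19 (adjusted p = 0.0154). Hk3, a hexokinase of myeloid cells, had 74.9, 71.8 and 76.6 CPM at 14 days, against 163, 139.8 and 135 CPM at 7 days, a log2 fold change of -0.97 ± 0.18 (adjusted p = 0.0174). Of 17 complement genes 2 were called lower (0.835% of all genes) and 1 higher. The C5a receptor gene C5ar2 had 30.6, 30.6 and 32.7 CPM at 14 days, against 73.5, 68.2 and 42.3 CPM at 7 days. Properdin, encoded by Cfp, had 6.03, 4.91 and 5.57 CPM at 14 days, against 10.3, 10.04 and 16.4 CPM at 7 days. Their log2 fold changes were -0.97 ± 0.24 and -1.15 ± 0.27. Tcirg1, a subunit of the proton pump that acidifies lysosomes, had 534, 496 and 558 CPM at 14 days, against 934, 1014 and 919 CPM at 7 days, a log2 fold change of -0.85 ± 0.21 (adjusted p = 0.0476), and was the only call among 28 lysosomal genes. Tgfbi, a matrix protein induced by TGF-beta, fell by 0.93 on the log2 scale. Col27a1, a fibrillar collagen gene with high levels in these nuclei, had 367, 347 and 365 CPM at 14 days, against 871, 817 and 570.4 CPM at 7 days, a log2 fold change of -1.06 ± 0.18 (adjusted p = 0.0135). Vasp, which promotes actin filament growth, had 27.1, 28.3 and 22.5 CPM at 14 days, against 68.3, 54.1 and 74.8 CPM at 7 days, a log2 fold change of -1.34 ± 0.27 (adjusted p = 0.0239). The cytochrome c oxidase subunit gene Cox4i1 had 10.7, 7.71 and 6.46 CPM at 14 days, against 34.6, 26.9 and 31.7 CPM at 7 days, a log2 fold change of -1.89 ± 0.36 (adjusted p = 0.0200), as the only call among 25 oxidative phosphorylation genes. Cox4i1 overlaps Emc8 on the other strand, and the library kit keeps no strand, so their reads cannot be told apart.

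**Figure D3:**
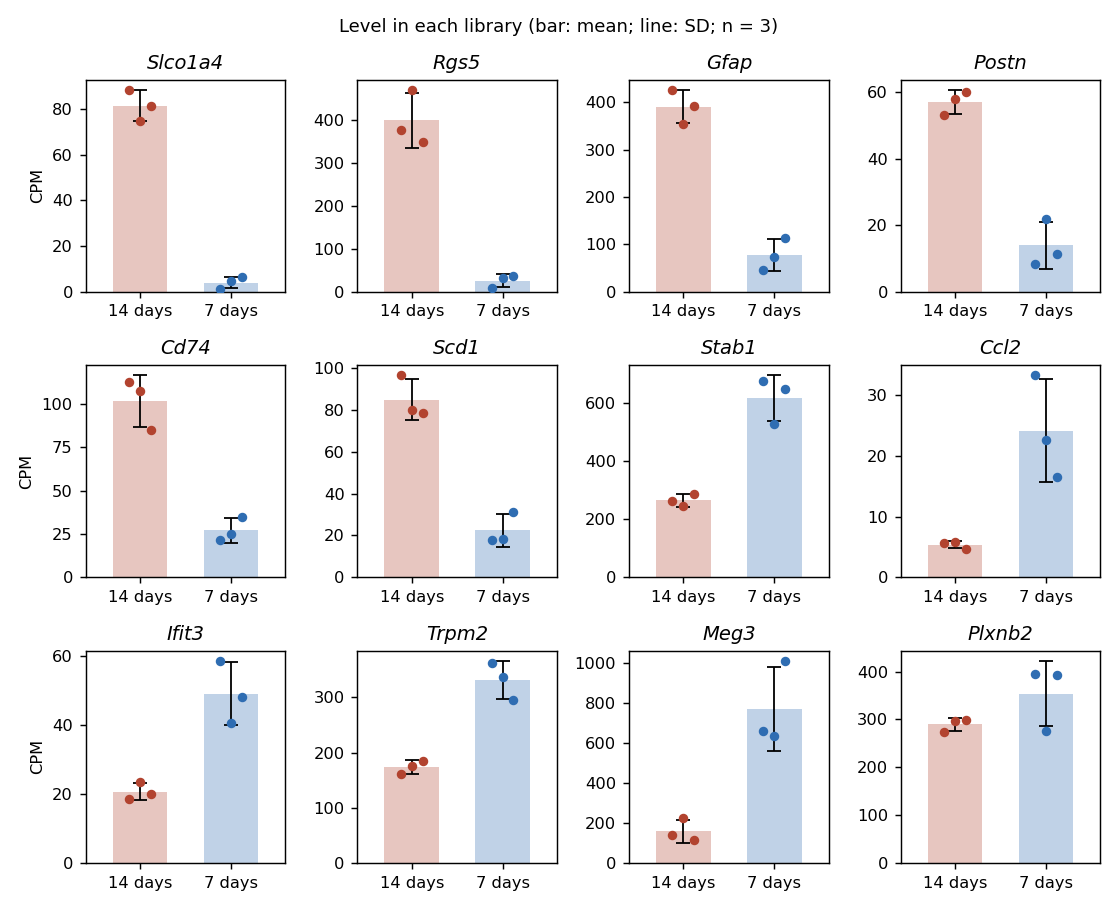
Level (CPM, vertical axis, linear from 0) of 12 genes in the 14-day libraries (red, left) and the 7-day libraries (blue, right), with bars at the mean, lines for the SD and points for the 3 libraries of each group. The 2 groups are apart for every gene shown except Plxnb2, whose 7-day replicate 3 lies among the 14-day points.

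The 2 chemokine genes Ccl2 and Ccl12, whose products draw monocytes, were lower at 14 days. Ccl2 (chr11:82035571-82037453, plus strand), the main ligand of the monocyte receptor Ccr2, had 5.73, 5.84 and 4.68 CPM in the 14-day libraries, against 33.3, 22.7 and 16.6 CPM in the 7-day libraries. Every 14-day library was below every 7-day library, and it had a log2 fold change of -2.15 ± 0.39 (adjusted p = 0.0161). Ccl12, a mouse chemokine that acts on the same receptor, had 6.18, 10.3 and 7.13 CPM at 14 days, against 40.8, 18.1 and 24.7 CPM at 7 days, a log2 fold change of -1.83 ± 0.34 (adjusted p = 0.0174). The 14-day values lay within or near the sham values, which were 9.69, 3.89 and 12.04 CPM for Ccl2 and 9.99, 10.3 and 5.32 CPM for Ccl12. Ccl2 and Ccl12 were the 2 calls among 21 genes of inflammatory cytokines and feedback (0.835% of all genes were called lower), a list with a median of -0.41. Over 16 Ccl and Cxcl chemokine genes the median was -0.00511, with these 2 called lower and 1, Cxcl12, called higher.

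Interferon-stimulated genes were lower in 4 of 32 members, against 0.835% of all genes, and none was higher. The list median was -0.57, and 21 of the 32 had every 14-day library below every 7-day library, against 16.7% of all genes. The members together had 2508, 2384 and 2637 CPM at 14 days, against 2923, 2827 and 3750.0 CPM at 7 days (exact permutation p = 0.10), with 5062, 4781 and 6551 CPM at 3 days and 1694, 1843 and 1763 CPM in sham, and all 32 genes were higher at 3 days than in sham. Irf7, a transcription factor that amplifies the interferon response, had 17.3, 19.6 and 19.4 CPM at 14 days, against 40.01, 29.1 and 42.3 CPM at 7 days, a log2 fold change of -0.98 ± 0.24 (adjusted p = 0.0451). Zbp1, a sensor of Z-form nucleic acids that can trigger necroptosis, had 24.6, 26.4 and 34.5 CPM at 14 days, against 82.1, 58.5 and 52.96 CPM at 7 days, a log2 fold change of -1.18 ± 0.28 (adjusted p = 0.0434). Ifit3, an antiviral protein with tetratricopeptide repeats, had 18.5, 23.4 and 20.05 CPM at 14 days, against 58.7, 40.5 and 48.1 CPM at 7 days, a log2 fold change of -1.25 ± 0.29 (adjusted p = 0.0399). Its tandem copy Ifit3b had 1.05, 0.701 and 0.223 CPM at 14 days, against 4.82, 4.58 and 2.54 CPM at 7 days, a log2 fold change of -2.48 ± 0.59 (adjusted p = 0.0430). Ifit3b was near the floor at 14 days, so the size of its fall rests on few counts. The call count for this list was 0 with any 1 of the 6 libraries left out, 9 by DESeq2 and 10 in a fit of the 6 libraries alone.

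The promoters of Ifit3 and Ifit3b are given because both genes were called and their sequences are close copies, so reads may have been split between them. Each is the 200 bases before the start of the gene in RefSeq (GRCm38.p6, plus strand), at chr19:34583329-34583528 for Ifit3 and chr19:34607757-34607956 for Ifit3b. Capitals mark the interferon-stimulated response element, searched on both strands as GAAA, 2 bases of any kind and GAAA, and present here on the other strand as TTTC, 2 bases and TTTC.
Ifit3: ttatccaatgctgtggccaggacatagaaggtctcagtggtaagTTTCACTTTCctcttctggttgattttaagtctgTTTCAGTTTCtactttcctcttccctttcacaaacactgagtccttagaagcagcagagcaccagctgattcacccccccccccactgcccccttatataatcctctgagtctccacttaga
Ifit3b: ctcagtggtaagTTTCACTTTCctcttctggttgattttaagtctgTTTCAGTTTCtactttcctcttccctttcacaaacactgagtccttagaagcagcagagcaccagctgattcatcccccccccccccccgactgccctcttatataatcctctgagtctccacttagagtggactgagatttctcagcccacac
Each promoter holds the element at 2 places. In windows of 250 bases before to 50 after the start, the 2 promoters share a run of 169 identical bases. Part of that run lies before the stretches printed. The element stood in 3.21% of all 11424 promoters in the table, in 7 of 105 of lower genes (6.67%) and in 7 of 170 of higher genes (4.12%), which no test compared. Of the other called interferon genes, Irf7 held no match in its window, and Zbp1 is not in the promoter table.

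Noncoding RNAs of the nucleus and hosts of small RNAs made up a further group of falls. Of 17 nuclear long noncoding RNAs, 3 were called lower (0.835% of all genes) and none higher, and the median was -0.76. Every 14-day library was below every 7-day library for 11 of the 17 (16.7% of all genes). Meg3 (chr12:109541001-109571726, plus strand), a noncoding RNA of an imprinted cluster that neurons express strongly, had 139, 222 and 113 CPM in the 14-day libraries, against 658, 634 and 1008 CPM in the 7-day libraries. The groups were apart, and it had a log2 fold change of -2.28 ± 0.44 (adjusted p = 0.0213). In sham it had 2899, 1194 and 590.4 CPM, with replicate 4 below the 7-day libraries. Snhg11, another RNA abundant in neurons, had 56.5, 101 and 39.2 CPM at 14 days, against 261, 307 and 481 CPM at 7 days, a log2 fold change of -2.41 ± 0.42 (adjusted p = 0.0152), and Snhg14, the host of neuronal small nucleolar RNAs, had 28.03, 32.02 and 21.2 CPM at 14 days, against 56.6, 51.4 and 82.6 CPM at 7 days. The 20 neuron markers had a median of 0.31 and a higher sum at 14 days, and none of them was called. Which cells the fall of these RNAs came from was not tested. Snhg8 and Snhg20 had log2 fold changes of -2.79 ± 0.53 and -2.12 ± 0.49. Malat1, a scaffold RNA of nuclear speckles, had a log2 fold change of 0.08 (adjusted p = 0.912) and Neat1, the scaffold of paraspeckles, of -0.76 (adjusted p = 0.213).

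The splicing machinery had lower values at 14 days without passing the test. No member of 29 splicing factors and hnRNPs was called, the median was -0.53, 17 of the 29 had every 14-day library below every 7-day library (16.7% of all genes), and the members together had 15462, 15038 and 16071 CPM at 14 days, against 19689, 24034 and 18148 CPM at 7 days. Srrm2, a scaffold of nuclear speckles, had 2439, 2519.7 and 2552 CPM at 14 days, against 3235, 3696 and 3429 CPM at 7 days, a log2 fold change of -0.46 ± 0.17 (adjusted p = 0.163). Outside that list, Snrnp70, the 70K protein of the U1 splicing particle, had 427, 492 and 527 CPM at 14 days, against 1105, 984 and 912 CPM at 7 days, a log2 fold change of -1.05 ± 0.20 (adjusted p = 0.0200). Arglu1, a splicing coactivator, had 379, 328 and 371 CPM at 14 days, against 556, 814 and 463 CPM at 7 days, a log2 fold change of -0.77 ± 0.19 (adjusted p = 0.0478). Ribosomal protein genes had 0 of 36 called, a median of -0.53 and 18 of 36 lower in every 14-day library, against the same 16.7%. Summed, they came to 893, 1088 and 854 CPM at 14 days, against 1191, 1202 and 1209 CPM at 7 days (exact permutation p = 0.10).

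Several of the largest falls were in genes of varied function. Cnbd2 had 17.2, 18.2 and 19.4 CPM at 14 days, against 96.2, 289.5 and 75.7 CPM at 7 days and 103, 18.97 and 12.3 CPM in sham, highest in sham replicate 2, with a log2 fold change of -3.07 ± 0.65 (adjusted p = 0.0277), and it overlaps Scand1. Jtb had 10.7, 12.9 and 11.1 CPM at 14 days, against 48.8, 85.1 and 43.9 CPM at 7 days, a log2 fold change of -2.36 ± 0.42 (adjusted p = 0.0161). Ankle1, a nuclease gene, had 4.67, 2.10 and 5.12 CPM at 14 days, against 37.1, 15.5 and 12.2 CPM at 7 days, a log2 fold change of -2.41 ± 0.50 (adjusted p = 0.0264). Ccdc107, which overlaps the abundant noncoding RNA gene Rmrp on the other strand, had 6.78, 9.12 and 4.01 CPM at 14 days, against 38.1, 39.4 and 17.5 CPM at 7 days, a log2 fold change of -2.25 ± 0.44 (adjusted p = 0.0225). Spint1, a protease inhibitor, had 7.53, 8.18 and 8.46 CPM at 14 days, against 43.4, 20.3 and 42.5 CPM at 7 days, a log2 fold change of -2.13 ± 0.37 (adjusted p = 0.0152). Tsr3, Sdf2, Chchd7 and Qtrt1 were also among the 15 largest falls, with log2 fold changes of -2.13, -2.08, -1.99 and -1.97. Sdf2 had 6.48, 7.48 and 5.57 CPM at 14 days, against 24.5, 37.2 and 21.3 CPM at 7 days, without overlap. Hist1h1c, a linker histone gene, fell by 1.56 on the log2 scale.

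Genes of microglial states did not pass between 14 and 7 days, although 11 of 26 homeostatic genes were lower and 20 of 26 damage-associated genes were higher at 3 days than in sham. Of 26 homeostatic genes 0 were called, the median was -0.24 and 5 had every 14-day library below every 7-day library, a share near the 16.7% of all genes. Sall1 was one of the 5, at -0.59 ± 0.16 (adjusted p = 0.0625). P2ry12, Siglech and Cx3cr1 had log2 fold changes of -0.53 ± 0.33, -0.52 ± 0.19 and -0.48 ± 0.22, and 7-day replicate 4 lay within or below the 14-day range for each. Of 26 genes of the damage-associated state 0 were called, the median was 0.31, and 8 were higher in every 14-day library (14.0% of all genes). Together they had 4801, 6006 and 5211 CPM at 14 days, against 2934, 4608 and 4942 CPM at 7 days (exact permutation p = 0.20), with overlap. Lpl, a lipase of lipid uptake, had 237, 224 and 243 CPM at 14 days, against 115, 194 and 134 CPM at 7 days, a log2 fold change of 0.67 ± 0.26 (adjusted p = 0.179). Axl, a receptor for apoptotic cells, had 497, 515 and 538 CPM at 14 days, against 289, 326 and 450.3 CPM at 7 days, with 0.54 ± 0.28 (adjusted p = 0.335). Lilrb4a, at a higher level, had 942, 933 and 1122 CPM at 14 days, against 676, 1322 and 1269 CPM at 7 days. Its log2 fold change was -0.12 ± 0.23 (adjusted p = 0.835). Lrp1, of the lipid uptake list, was at -0.31 ± 0.20 (adjusted p = 0.446), and the groups overlapped for both genes. Cell division genes, which were raised at 3 days in 28 of 28 mitosis genes and 21 of 27 replication genes against sham, had 0 calls in either list between 14 and 7 days, with medians of -0.23 and -0.23. Mki67, a marker of cycling cells, had 114, 147 and 127 CPM at 14 days, against 206, 215 and 198 CPM at 7 days, with -0.68 ± 0.32 (adjusted p = 0.287), and the helicase subunit gene Mcm7 had -0.80 ± 0.21 (adjusted p = 0.0601).

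The remaining lists had no call in growth factors (16 genes), heat shock and chaperones (19), immediate early genes (23), lipid uptake and droplets (19) and chromatin modifiers (28), with medians between -0.14 and 0.40. Every 14-day library was above every 7-day library for 8 heat shock and 7 growth factor genes (14.0% of all genes). It was below for 1 gene of each. Heat shock genes summed to 2269, 2651 and 2055.5 CPM at 14 days, against 1348, 1774.5 and 1890.5 CPM at 7 days. Growth factors summed to 892, 973 and 1004 CPM at 14 days, against 696, 705 and 808 CPM at 7 days. Single calls already named came from the lists of cholesterol efflux (Pltp, 1 of 20), the integrated stress response (Slc7a5, 1 of 21), alternative activation (Tgfbi, 1 of 13) and replication-dependent histones (Hist1h1c, 1 of 5). Glycolysis and hypoxia (22 genes), oxidative stress and iron (22), cytoskeleton (28) and microglial channels (23) had 1 call in each direction: Slc2a1 and Hk3, Slc7a11 and Ncf1, Cfl1 and Vasp, Kcnj10 and Trpm2.

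**Figure D4:**
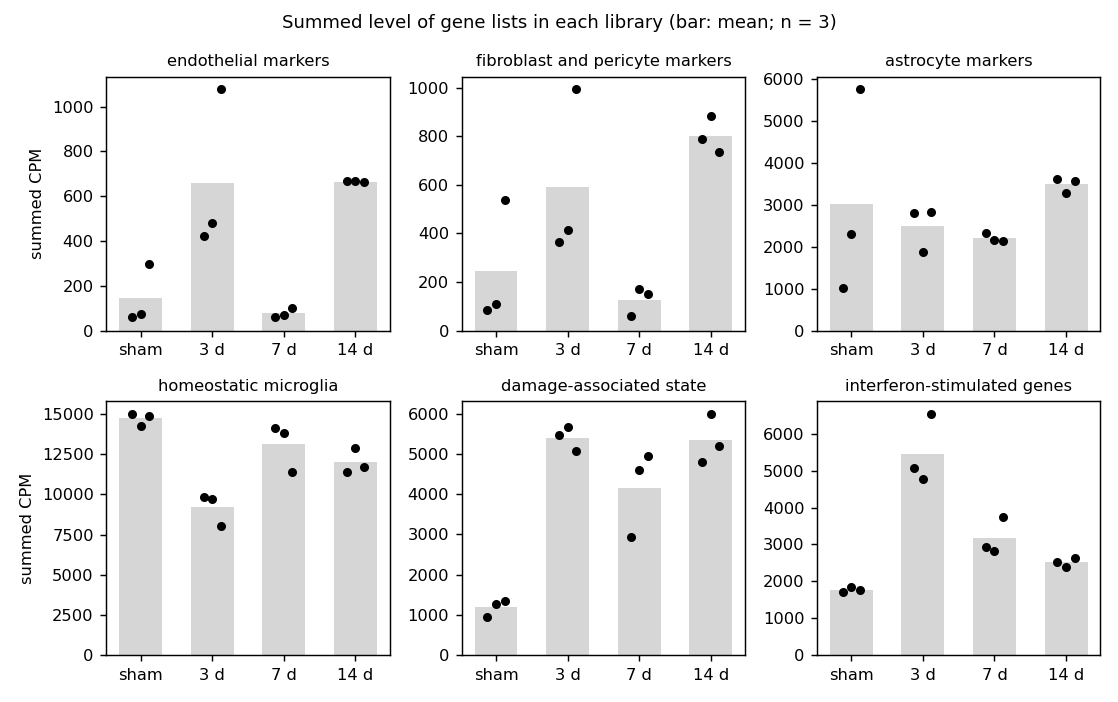
Summed level (CPM, vertical axis, linear from 0) of 6 gene lists in the 12 libraries by group, in order of time (horizontal axis), with bars at the mean and points for the 3 libraries of each group. Endothelial markers sum to 667, 666 and 662 CPM at 14 days and 60.6, 71.2 and 101 CPM at 7 days, and 3-day replicate 3 and sham replicate 4 are the highest points of their groups in the 2 vascular panels.

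The libraries outside the comparison were placed on the same genes. For each called gene the 14-day mean was set to 0 and the 7-day mean to 1 on the log2 scale, and the position of each other library was read between them. Over the 250 higher genes the median position was 0.252, 0.253 and -0.126 in the 3-day replicates 1, 2 and 3, close to 14 days, and 0.864, 0.715 and 0.284 in sham replicates 2, 3 and 4. Over the 154 lower genes it was 0.356, 0.462 and 0.411 at 3 days and 0.915, 0.577 and 0.176 in sham. Sham replicate 2 thus lay nearer to 7 days for 201 of the 250 and 124 of the 154 genes, and sham replicate 4 for 76 and 46. The labels give each library a primer number, and these were 9, 10 and 11 at 14 days and 4, 7 and 6 at 7 days, with number 5 on sham replicate 2, 12 on sham replicate 3 and 2 on sham replicate 4. The labels do not say whether the numbers mark a shared preparation. With a term for numbers 4 to 7, 4 genes were called (2 higher, 2 lower), none of them among the 404. In that fit the time and the number can be told apart only through sham replicate 2.

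**Figure D5:**
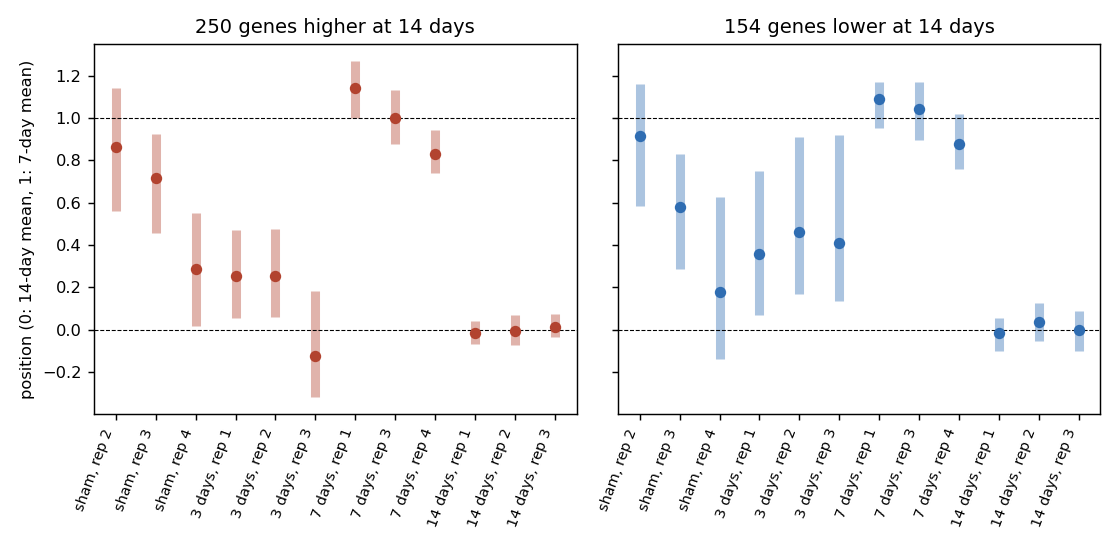
Position of each of the 12 libraries (horizontal axis, in order of time) between the 14-day mean (0) and the 7-day mean (1) on the log2 scale, for the 250 genes higher and the 154 genes lower at 14 days. Points are medians over genes and bars run from the lower to the upper quartile. The positions of the 14-day and 7-day libraries are fixed by the choice of genes, while sham replicate 2 lies at 0.864 and 0.915 and sham replicate 4 at 0.284 and 0.176.

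The change at 3 days against sham uses none of these 6 libraries. Of the 250 genes higher at 14 days, 99 were also higher at 3 days than in sham (39.6% of the 250 and 4.94% of the 2003 genes higher at 3 days, which are 10.9% of all tested), and 6 were lower (2.40%). Of the 154 lower genes, 19 were higher at 3 days (12.3%) and 26 were lower (16.9%), where 9.17% of all tested genes were lower. The shared higher genes include Tek, Cdh5 and Flt1. Sham replicate 4 and 3-day replicate 3 stand apart in vascular RNA within this second comparison, and without 3-day replicate 3 the number called between 3 days and sham was 1866 in place of 3695.

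Gene length, as the RPKM table uses it, went with direction. By that measure Erg has 3466 bases, far fewer than its span on the chromosome, and the span was not examined. Of the 4615 shortest tested genes (57 to 1957 bases) 0.585% were called higher and 1.17% lower, and of the 4612 longest (5774 to 123179 bases) 2.30% were higher and 0.369% lower. Protein-coding genes were called higher in 1.69% and lower in 0.935% of 13904 genes, and long intergenic noncoding RNAs in 0.168% and 1.18% of 595. Whether length had a part in the calls was not tested. On the RPKM scale of the authors, 77.6% of calls were higher at 14 days with a pseudocount of 1 and 78.4% with 0.1, in place of 61.9% in counts, and the median log2 fold change of all genes was 0.06 and 0.09 in place of -0.05. In the count table the share was 53.5% without a filter on low counts, 51.3% in a fit of the 6 libraries and 45.4% without sham replicate 4.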

How the data were processed

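Counts and RPKM are deposited for 12 libraries. The authors' table of raw counts per Ensembl gene was made with featureCounts 1.4.6-p3 on GRCm38 (mm10), per the submitters' processing notes, and their deposited RPKM table scales the same counts by gene length and library total, as the values show. The RNA was amplified isothermally before a library kit that keeps no strand, per the labels' protocols. Which aligner was used, whether strand was considered and how multiply matching reads were treated is not given in the sources used here.

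Genes passing filterByExpr (18451, with 99.6% of counts) were TMM-normalized, then fitted over 4 groups and 12 libraries with the quasi-likelihood test of edgeR 4.0.16 in R 4.3.3 (common biological coefficient of variation 0.271), with p-values adjusted by Benjamini-Hochberg over every tested gene and called at 0.05. Log2 fold changes are 14 days minus 7 days, ± SE (the fold change divided by the root of the F statistic). CPM of single genes are TMM-scaled and sums of lists are not. Sums were compared by an exact permutation test. Total counts were 4003480 to 10670804.

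As alternatives, DESeq2 1.42.0, median-ratio size factors, an unfiltered table, a stricter filter (1 CPM in 3 libraries and a mean of 5 CPM), the 6 libraries alone, a replicate block, covariates for Y-linked genes and for neural markers, limma 3.58.1 on log2(RPKM + 1) or (RPKM + 0.1), and each of the 6 libraries left out were run. Chosen after seeing the data were the term for primer numbers 4 to 7, the covariate for vascular markers, the fits without sham replicate 4 or 3-day replicate 3, sums with a library or with Csf3r, Siglech or Stab1 left out, and the ETS motif. Genes were named as Plxnb2, the 15 largest changes each way among called genes with a mean of at least 10 CPM and no overlap between groups (predicted genes and pseudogenes passed over), the 5 called genes of highest level each way, and up to 4 called genes of each list or else up to 2 of highest level. Microglial markers and Ptgds, Flt1, Robo4, Cldn5, Egfl7, Esam, Anpep, Kcnj8, Slc1a3, Malat1, Neat1, Col4a1, Tgm2 and Atp13a4 were added after their values were seen, and not every gene the rule allows is named. Members and the 48 gene lists were chosen with earlier results of these data known. Positions are from the GENCODE annotation of GRCm38. The scripts were tested on simulated data.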

Additional observations from a re-analysis of the deposited data

How the results depend on the processing

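Leaving out 1 of the 6 libraries gave 1 to 301 called genes in place of 404, with 0 to 1 lists in place of 3 holding 25% or more of their members called in one direction. The count was 1087 by DESeq2 1.42.0, 1562 without a filter, 1827 in a fit of the 6 libraries and 218 by limma on log2(RPKM + 0.1), where the lists numbered 7, 11, 15 and 1. The replicate block gave 1608 genes and 9 lists, although libraries with the shared numbers 1 and 3 did not deviate together (r = 0.0156 and 0.000981) and so share only a number. With neural markers as a covariate there were 49 genes and 0 lists, with the primer term 4 and 0, with vascular markers 0 and 0, and without sham replicate 4 there were 1774 and 11. Median-ratio size factors (398), the stricter filter (304), the Y-linked covariate (391), limma on log2(RPKM + 1) (294) and the fit without 3-day replicate 3 (333) stayed within 1.5 times. Between 3 days and sham, 3695 genes were called, 1866 without 3-day replicate 3 and 4152 without sham replicate 4, and the other 4 libraries of that comparison were not left out. The cause of these differences was not tested. The direction of the 250 and 154 genes, where fitted, held in each fit except with the primer term (233 and 153 kept it) and with the vascular covariate (231 and 152). These genes did not overlap between the groups, which left little room for a turn when a library was left out.

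Of 1918 values of single genes, 22 turned direction, all with those 2 added terms. With the primer term they were Axl at -0.70, Lpl at -0.074, Dcn at -0.58, Cdh5 at -0.75, Itga1 at -0.62, Kcnj10 at -0.0589 and Slc22a8 at -0.40. With the vascular covariate they were Axl at -0.60, Sema6a at -0.22, Rgs5 at -0.77, Slc7a11 at -0.25, Slc2a1 at -0.10, Flt1 at -0.0738, Cdh5 at -0.071, Robo4 at -0.38, Plxnb2 at 0.0711, Itga1 at -0.73, Cx3cr1 at 0.17, Adgrf5 at -0.43, Slc4a4 at -0.28, Cxcl12 at -0.19 and Slc22a8 at -0.38. Rgs5, Flt1, Cdh5 and Robo4 are themselves among the vascular markers summed for that covariate. A further 751 lost significance and 16 gained it. The log2 ratio of summed neutrophil markers (-0.05) was 0.01 to 0.11 without 14-day replicate 1, 7-day replicate 1 or 7-day replicate 4, and that of B and plasma cell markers (-0.12) ranged from -0.31 to 0.17, the highest without 7-day replicate 1. With 3 libraries a group an exact test of 1 value cannot go below 0.10, and genes of a few counts per library give no usable ratio.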

Other observations

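Gene families read from their symbols, and so chosen after the values were seen, give further groups as counts only. Of 240 solute carrier genes (symbols of the form Slc2a1) 10 were called higher at 14 days (4.17%) and 1 lower (0.417%), where 1.35% and 0.835% of all tested genes were. Beside those described above, the higher ones include Slc19a3, Slc38a1, Slc6a13 and Slc7a2. Of 36 collagen genes 4 were higher (Col4a1, Col4a2, Col4a5 and Col6a2) and 2 lower (Col27a1 and Col7a1), with a median log2 fold change of 0.68. Of 11 small nucleolar RNA host genes 4 were lower and none higher, with a median of -1.23. Of 353 zinc finger genes named Zfp 2 were lower and none higher. Of the 250 higher genes, 24 were in a list of another cell type's markers, 22 in another of the lists, 18 were predicted genes or pseudogenes and 186 were in none of these, and of the 154 lower genes these numbers were 2, 18, 25 and 109.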
